A study of Mus musculus with 12 samples.

Results

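The mitochondrial ribosomal protein genes described here are the 75 genes whose symbol in the deposited normalised expression table begins with Mrpl or Mrps followed by a digit, out of 11921 genes in that table. Of these, 46 carry Mrpl names, given to proteins of the large subunit, and 29 carry Mrps names, given to proteins of the small subunit. All 75 are annotated as protein-coding, they are spread over 17 chromosomes, and all 75 passed the filter on low counts. Another 6 genes of the count files have matching symbols outside the table. These are Mrpl53, with a count of 0 in every library, and 5 processed pseudogenes with at most 20 counts in any library, and they were not followed further. Reads aligned to several places were not counted, so a low count need not mean that a gene was silent.

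Mitochondria translate the few messengers made from their own genome on a dedicated ribosome, whose RNA comes from mitochondrial DNA and whose proteins are all encoded in the nucleus, made in the cytosol and imported. Its products are subunits of the respiratory chain and the ATP synthase. Part of its proteins descend from the bacterial ribosome and part are found only in mitochondria. T cells enlarge their mitochondrial mass and translation machinery when they are activated to divide.

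The series holds 12 RNA-seq libraries of mouse CD4+ T cells in 4 groups of 3. Naive T cells sorted from spleens of wild-type (WT) mice or STINGgt/gt mice, C57BL/6 animals of 8 to 12 weeks, were first activated through CD3 and CD28 and expanded for 2 days. After 1 day of rest they received CMA (10-carboxymethyl-9-acridanone), a small molecule that activates mouse STING, or its solvent DMSO, for 16 h. STING is the adaptor that relays cyclic dinucleotide signals to interferon and NF-kB. The STINGgt/gt (goldenticket) strain carries a missense allele in every cell, and GEO's labels call these samples STING KO. The study calls the libraries of a group biological replicates, without saying whether each came from its own mouse, and p-values measure the spread between these libraries.

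Each library held 27414450 to 43784910 counts on genes. The WT CMA libraries, where the members were lowest, stood apart in the read tallies. Reads outside any gene were 6.79% to 7.16% of their files, against 4.86% to 5.47% in WT DMSO and 5.98% to 6.54% in STINGgt/gt libraries, and reads aligned to several places were 27.8% to 27.9%, against 29.6% to 30.3% and 28.1% to 29.0%. The part of these tallies in the results was not tested. The paper reports that CMA overnight killed WT T cells by apoptosis, and not STINGgt/gt T cells. WT CMA is thus the only group in which many dying cells are likely. Changes in living cells and changes through cell death cannot be told apart here. The transcript of STING (Tmem173) was at 183 to 190 CPM (counts scaled in each library to a common total) in WT DMSO libraries. It was at 168 to 181 in STINGgt/gt DMSO libraries, and a missense allele need not change this level. With CMA, Tmem173 was at 296 to 316 CPM in WT libraries (log2 fold change 0.71, edgeR adjusted p = 5.87e-10). The STINGgt/gt CMA libraries were at 169 to 184 CPM. Isg15, an interferon-induced gene, was at 9.32 to 13.1 CPM in WT DMSO, 405 to 441 in WT CMA and 10.3 to 15.4 in all STINGgt/gt libraries. The CD4 T cell markers fixed for a check (8 of 8, Cd4 and the CD3 chains among them) were detected in every group. Their summed level was 2660 to 2750 CPM in WT CMA, below 2900 to 2970 in WT DMSO and 3010 to 3080 in STINGgt/gt libraries. With CMA in WT cells 4 of these 8 fell, led by Cd3e (log2 fold change -0.66), and 1 rose (Cd4, 0.19). The libraries also held other cells' markers, at levels that differed between groups. All 7 B cell markers were detected, at a summed 897 to 973 CPM in WT DMSO, 1280 to 1410 in WT CMA, 450 to 468 in STINGgt/gt DMSO and 477 to 483 in STINGgt/gt CMA. The 6 myeloid markers tested summed to 48.6 to 52.6, 59.9 to 63.2, 36.1 to 37.9 and 34.5 to 38.8 CPM in the same order, most of it Cst3, and the defining markers Csf1r and Cd14 stayed under 1 CPM on average in each group. With CMA in WT cells Cst3 rose (log2 fold change 0.53), while Lyz2 (-1.50), Itgam (-1.71) and Fcer1g (-0.74) fell. The 6 CD8 and natural killer markers summed to 2020 to 2480, 1480 to 1580, 874 to 916 and 665 to 711 CPM, most of it Gzmb, which activated CD4+ T cells also express, and 5 of the 6 fell with CMA in WT cells. The part of these shifts in the results below was not tested. In bulk RNA, fewer cells of a type and less RNA per cell cannot be told apart.

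The starts of these genes are shown first, because many members moved together. RefSeq windows on GRCm38.p6, from 250 bases before to 50 bases after an annotated start, were found for 66 of the 75 genes. The letters CCGGAAG on either strand, a core bound by ETS factors such as GABPA, were in the windows of 23 of 66 members (34.8%), of 21.1% of 8932 genes of the deposited table and of 9.93% of all 27025 genes with a window. The letters AAGATGGCG, a core of the YY1 motif, were in 8 of 66 member windows (12.1%), against 3.76% and 1.64% in the same sets. The NRF1 core, GCGCA and GCGC with 1 base of any kind between them, was in 12 (18.2%, against 12.1% and 5.19%). The E-box CACGTG, bound by MYC and others, was in 5 (7.58%, against 12.0% and 8.09%), the CCAAT box in 26 (39.4%, against 43.3% and 41.1%), and a pair of half-sites of the interferon response element, GAAA and GAAA with 2 bases between them, in 3 (4.55%, against 3.85% and 3.99%). Both strands were searched, and no match in a window says only that these letters are not there.

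The 8 stretches with AAGATGGCG or its reverse complement are printed to show where this motif, held by 12.1% of member windows and 3.76% of windows in the table, lies in each. The match is in capitals. In 6 of the genes it lies after the start, at base 12 (Mrps18a, chr17:46111007-46111031, plus strand), 15 (Mrps27, chr13:99344792-99344816, plus), 24 (Mrpl35, chr6:71823745-71823769, minus), 27 (Mrpl37, chr4:107066824-107066848, minus), 28 (Mrpl42, chr10:95501906-95501930, minus) and 37 (Mrps24, chr11:5707652-5707673, minus). In Mrpl36 (chr13:73330970-73330994, plus) and Mrps11 (chr7:78783015-78783039, plus) it lies on the reverse strand upstream, from base -31 and -108.
Mrps18a: tgcgttccAAGATGGCGgccctcag
Mrps27: tgcgctccAAGATGGCGgctcccat
Mrpl35: caggctgcAAGATGGCGgcttccat
Mrpl37: cacgggcaAAGATGGCGgcgtccag
Mrpl42: attgaagcAAGATGGCGagcgcgcg
Mrps24: gccggcccAAGATGGCGtggtc
Mrpl36: tgaccttaCGCCATCTTtcttcctg
Mrps11: acgggcgcCGCCATCTTtctgtctt

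Upstream stretches of 150 bases that overlap no annotated exon follow for 4 members. Mrpl42 (chr10:95501950-95502099, minus strand) had the largest fall with CMA among genes with such a stretch and holds none of the searched motifs in it. Mrpl52 (chr14:54426759-54426908, plus) and Mrps22 (chr9:98601680-98601829, minus) fell and hold the ETS core, in capitals, from base -47 and -11. Such stretches of Mrpl34 (log2 fold change with CMA in WT -0.44) and Mrpl48 (-0.07, not called) hold it too and are not printed. Mrpl45 (chr11:97315566-97315715, plus), one of the few members that rose, holds the NRF1 core, in capitals, from bases -120 and -38. Of the 12 members with the NRF1 core in their window, 8 fell and 2 rose.
Mrpl42: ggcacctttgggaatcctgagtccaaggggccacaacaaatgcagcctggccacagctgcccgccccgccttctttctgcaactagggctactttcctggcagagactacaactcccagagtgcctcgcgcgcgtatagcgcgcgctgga
Mrpl52: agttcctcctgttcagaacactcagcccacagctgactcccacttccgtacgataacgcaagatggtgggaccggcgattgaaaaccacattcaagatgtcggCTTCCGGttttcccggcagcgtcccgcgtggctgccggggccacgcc
Mrps22: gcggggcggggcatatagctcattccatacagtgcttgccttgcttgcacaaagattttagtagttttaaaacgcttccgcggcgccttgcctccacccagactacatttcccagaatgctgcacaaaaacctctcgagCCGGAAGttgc
Mrpl45: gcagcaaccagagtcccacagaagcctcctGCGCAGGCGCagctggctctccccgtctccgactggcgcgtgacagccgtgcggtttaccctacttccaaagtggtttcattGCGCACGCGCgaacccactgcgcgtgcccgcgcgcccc

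The summed level of the 75 genes, as a share of all gene counts, was 0.32% ± 0.0127 (SD, n = 3) in WT DMSO and 0.241% ± 0.00254 (SD, n = 3) in WT CMA. It was 0.323% ± 0.00907 (SD, n = 3) in STINGgt/gt DMSO and 0.324% ± 0.00315 (SD, n = 3) in STINGgt/gt CMA. The 3 WT CMA libraries stood at 0.2417%, 0.2424% and 0.2377%, below all 9 others, which ranged from 0.311% to 0.335%. The share was described without a test.

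**Figure D1:**
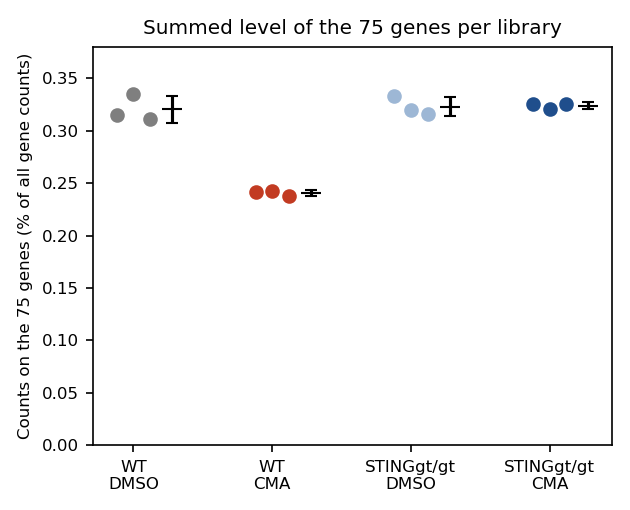
Share of all gene counts that fell on the 75 mitochondrial ribosomal protein genes, in percent, for each of the 12 libraries (points) by group, with the mean and SD of 3 libraries beside them. The WT CMA libraries sit between 0.2377% and 0.2424%, and the other 9 between 0.311% and 0.335%.

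Levels between genes were compared per kilobase of exon, as the mean CPM over all 12 libraries. They ran from 1.29 to 52.1 CPM per kb, with a median of 17.0. The highest were Mrpl12 at 52.1, whose protein forms the stalk that recruits translation factors, Mrpl18 at 51.0, Mrpl45 at 48.5, which holds the ribosome to the inner membrane, and Mrpl10 at 40.5, the base of the stalk. The lowest were Mrpl23 at 1.29, a protein at the exit of the peptide tunnel, Mrpl48 at 3.39, Mrps35 at 3.60 and Mrps25 at 4.37. All exons of all annotated transcripts enter the length, so a gene with long unused exons reads low.

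CMA lowered most mitochondrial ribosomal protein genes in WT T cells. By edgeR's quasi-likelihood model, with p-values adjusted by Benjamini-Hochberg across 13811 genes, 62 of 75 fell (82.7%), where 37.4% of all genes tested fell, and 3 rose (4.0%), where 33% of all genes rose. The median log2 fold change of the 75 was -0.49, a level 0.714 times that with DMSO, beside a median of -0.04 over all genes tested. The falls were moderate in size: 2 members fell by a factor of at least 2, 20 by 1.5 to 2, and 52 changed by less than 1.5-fold either way. In 62 members all 3 WT CMA libraries lay below all 3 WT DMSO libraries (37.6% of all genes did), and in 3 they lay above (33.5% of all genes). The log2 fold changes spread over the 75 with an SD of 0.30, against a median standard error (SE) of 0.06 for a single gene.

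**Figure D2:**
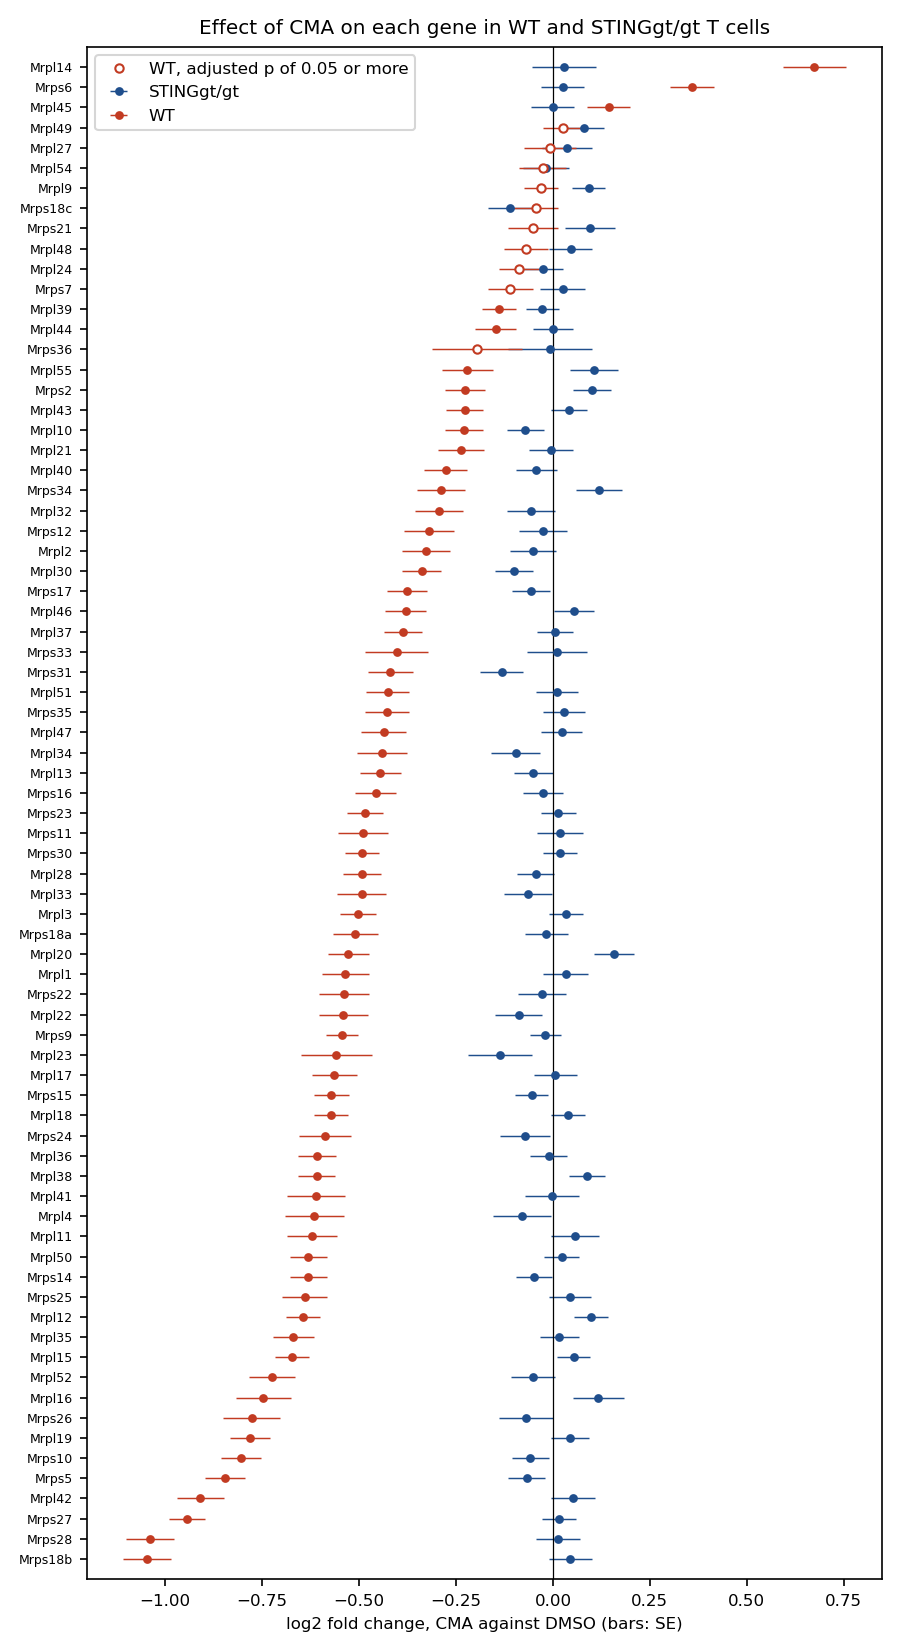
The log2 fold change of CMA against DMSO (horizontal axis, with SE bars) for each of the 75 genes, ordered by the effect in WT cells (red), with the effect in STINGgt/gt cells in blue; open red points had an adjusted p of 0.05 or more. WT values run from -1.05 to 0.67, and STINGgt/gt values stay between -0.14 and 0.16.

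The 6 largest falls included 5 small subunit genes. Mrps18b (ENSMUSG00000024436, chr17:35910379-35916389, minus strand, GRCm38), which encodes one of the 3 mammalian relatives of bacterial S18, was at 25.6, 29.7 and 28.1 CPM in WT DMSO and at 13.3, 13.8 and 13.3 in WT CMA. It was at 32, 31 and 31 CPM in STINGgt/gt DMSO and at 34, 31.4 and 31.6 in STINGgt/gt CMA. The WT CMA libraries were the lowest and did not overlap any other group (log2 fold change in WT -1.05, SE 0.06, edgeR adjusted p = 1.92e-10). Mrps28 (ENSMUSG00000040269, chr3:8802146-8923918, minus) was at 20.6, 21 and 20.4 CPM in WT DMSO, at 10.3, 10.1 and 9.68 in WT CMA, and at 19.4 to 22 in the 6 STINGgt/gt libraries. Its log2 fold change in WT was -1.04 (SE 0.06, edgeR adjusted p = 2.08e-10). Here too the WT CMA group stood alone, with about the same level in the other 3 groups.

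Mrps27 (chr13:99344786-99415561, plus), a pentatricopeptide repeat protein of the small subunit that binds RNA, was at 45.4, 50 and 46.8 CPM in WT DMSO, at 24.3, 24.7 and 24.9 in WT CMA and at 49 to 51.4 in STINGgt/gt libraries. It fell by 0.94 on the log2 scale (SE 0.05, edgeR adjusted p = 2.49e-11), the smallest adjusted p of the 75. Mrpl42 (chr10:95480806-95501927, minus), a mitochondria-specific large subunit gene whose start is printed above, was at 52.7, 51.7 and 55.3 CPM in WT DMSO and at 28.2, 28.1 and 28.8 in WT CMA. It was higher in STINGgt/gt libraries, at 56.7 to 66 CPM, and its log2 fold change in WT was -0.91 (SE 0.06, edgeR adjusted p = 9.07e-10). Mrps5 (chr2:127587222-127606829, plus), at the messenger entry of the small subunit, went from 44.4, 48.8 and 46.7 CPM to 26.2, 26 and 25.6 (-0.85, SE 0.05). Mrps10 (chr17:47368887-47381417, plus) went from 38.1, 41 and 36.8 CPM to 22.7, 22 and 21.5 (-0.81, SE 0.05).

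**Figure D3:**
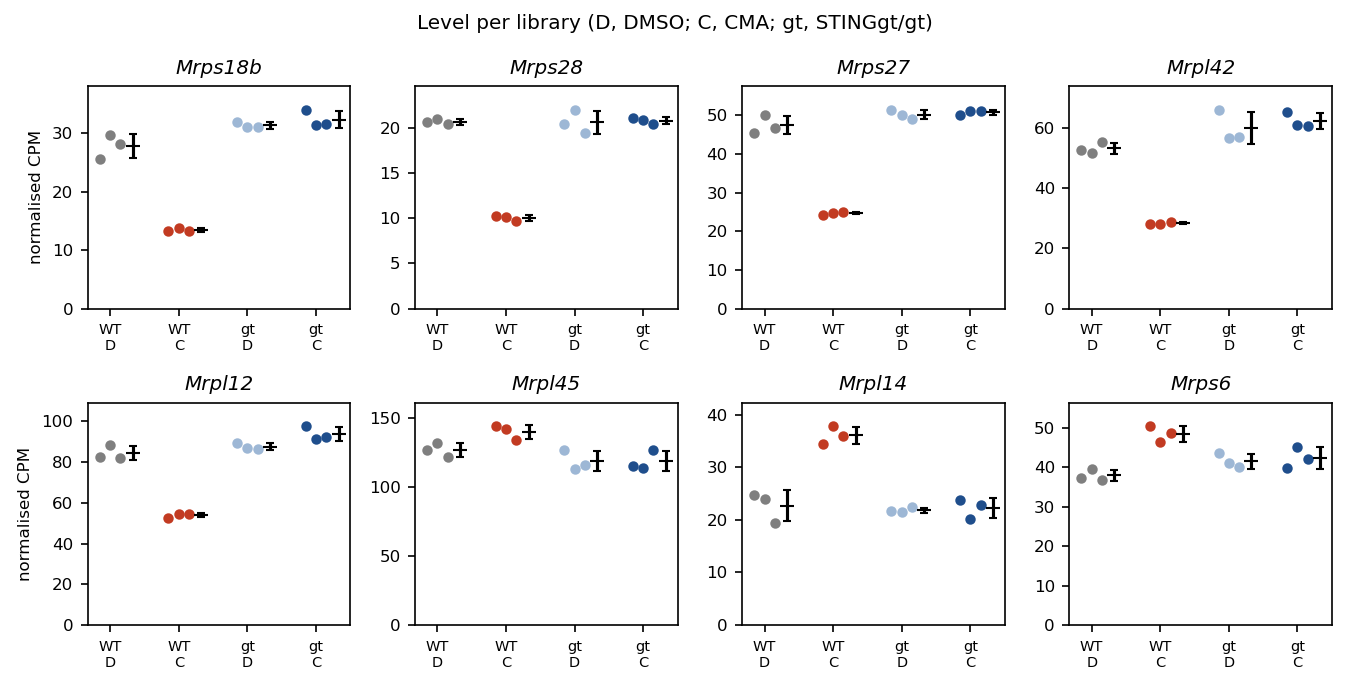
Normalised CPM in each library (points) with the mean and SD of 3 libraries (bars) for 8 genes, each on its own linear axis from 0. The first 5 genes are lowest in WT CMA, with no overlap (Mrps18b at 13.3 to 13.8 CPM), while Mrpl14, Mrps6 and Mrpl45 are highest there.

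By place in the ribosome, the falls reached every class. Of 16 small subunit members with a bacterial counterpart, 12 fell and 1 rose (median log2 fold change -0.47). All 10 mitochondria-specific members of the small subunit fell (median -0.51). Of 30 large subunit members with a bacterial counterpart, 26 fell and 1 rose (median -0.50), and of 18 mitochondria-specific ones, 14 fell and 1 rose (median -0.38). Mrps18a and Mrps30 have small subunit names but sit in the large subunit, and they are counted there. Mrps36, whose protein is now known as a part of the alpha-ketoglutarate dehydrogenase complex and not of the ribosome, was at 7.02 to 8.19 CPM in WT DMSO and 6.4 to 7.34 in WT CMA. These ranges overlapped, and the difference did not pass (log2 fold change -0.20, SE 0.12, edgeR adjusted p = 0.146).

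Members with known individual roles followed different sizes of change. Mrpl12, the stalk protein, was at 82.6, 88.3 and 82 CPM in WT DMSO and at 52.7, 54.3 and 54.7 in WT CMA, a log2 fold change of -0.64 (SE 0.04, edgeR adjusted p = 1.6e-09). Mrps12, of the decoding centre, fell from 23.6 to 26.3 CPM to 18.7 to 20.8 CPM (-0.32, SE 0.06). Mrps30 fell from 66.5 to 71 CPM to 47.6 to 49.7 CPM (-0.49, SE 0.04). Mrpl44, which has a fold related to ribonuclease III, moved less, from 39.9, 43.7 and 41.5 CPM to 38.3, 37.5 and 37.2 (-0.15, SE 0.05, edgeR adjusted p = 0.0203), and lost its call in 7 of 22 other settings (adjusted p 0.0579 to 0.0887).

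The 3 relatives of S18 differed in size. Mrps18b had a log2 fold change of -1.05, Mrps18a of -0.51 (SE 0.06), from 39.9 to 44.9 CPM down to 27.7 to 30.7 CPM, and Mrps18c, the one that occupies the S18 position, of -0.04 (SE 0.06, edgeR adjusted p = 0.496). Mrps18c was at 28.6, 30.6 and 30.3 CPM in WT DMSO and at 27.6, 29 and 30.3 in WT CMA, and these overlapped. The differences between the 3 genes were not tested.

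In WT cells 10 members did not pass the test: Mrps36, Mrps7, Mrpl24, Mrpl48, Mrps21, Mrps18c, Mrpl9, Mrpl54, Mrpl27 and Mrpl49. Their log2 fold changes were all between -0.20 and 0.03. Mrpl27, near the peptidyl transferase centre, was at 17.9, 20.7 and 19.1 CPM with DMSO and at 19.4, 19 and 19 with CMA (log2 fold change -0.01, SE 0.07). Mrpl54 was at 29.3 to 34 and 30.3 to 31 CPM (-0.03, SE 0.06), and Mrpl49 at 35.1 to 39.2 and 37.3 to 38.9 CPM (0.03, SE 0.05).

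Only Mrpl14, Mrps6 and Mrpl45 were called higher, and all 3 overlap another gene. Mrpl14 (chr17:45686322-45698495, plus strand), a large subunit protein at the face between the subunits, was at 24.8, 24 and 19.4 CPM in WT DMSO and at 34.5, 37.8 and 35.9 in WT CMA (log2 fold change 0.67, SE 0.08, edgeR adjusted p = 1.5e-06). The STINGgt/gt libraries lay at 20.2 to 23.8 CPM, within or near the WT DMSO range. It overlaps the opposite-strand gene Tmem63b, which rose from 23.6 to 32.3 CPM to 81.6 to 83.5 CPM (log2 fold change 1.51, SE 0.09). Mrps6 (chr16:92058270-92112227, plus), of the small subunit, was at 37.3, 39.6 and 36.9 CPM in WT DMSO and at 50.4, 46.4 and 48.8 in WT CMA (0.36, SE 0.06, edgeR adjusted p = 2.81e-05), and at 39.8 to 45.2 in STINGgt/gt libraries. It shares exons with the same-strand gene Slc5a3, a myo-inositol transporter, which rose from 77.9 to 104 CPM to 156 to 182 CPM (0.87, SE 0.09). Reads that fit several genes were tallied as ambiguous and left out (0.59% to 0.64% of each file). The strand setting of counting is not given, so reads of an opposite-strand neighbour may have been counted for a member. The part of these neighbours in the rise was not tested.

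Mrpl45 (chr11:97315716-97329920, plus), the member with the most counts, was at 127, 132 and 122 CPM in WT DMSO and at 144, 142 and 134 in WT CMA, without overlap (log2 fold change 0.14, SE 0.06, edgeR adjusted p = 0.0297). The call was lost in 4 of 22 other settings (adjusted p 0.0567 to 0.105), which were scaling by library size and the fits without WT DMSO replicate 3, WT CMA replicate 1 or WT CMA replicate 2. Among the 35 members that overlap no other gene, 32 fell and none rose in edgeR's test, with all 35 log2 fold changes below 0 (median -0.49). An unadjusted p under 0.05 added no member to these 32. Among the 40 that overlap one, 30 fell and 3 rose (median -0.44).

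In STINGgt/gt T cells no member passed the test, with 0 higher and 0 lower by edgeR, where 0.398% of all genes tested rose and 0.92% fell. At an unadjusted p under 0.05 there were 3 members (Mrpl12, Mrpl20 and Mrps31), and DESeq2 and limma-voom also called 0. Log2 fold changes ran from -0.14 to 0.16 with a median of 0.01 and a median SE of 0.05. The member with the smallest adjusted p was Mrpl20 at 0.16 (adjusted p = 0.185). All 3 STINGgt/gt CMA libraries lay above the DMSO libraries in 8 members (11.8% of all genes) and below them in 6 (11.3% of all genes). Mrpl12, for example, was at 89.5, 86.7 and 86.4 CPM with DMSO and at 97.5, 91.1 and 92.5 with CMA (0.10, SE 0.04, edgeR adjusted p = 0.35).

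The CMA effect itself was compared between genotypes as the WT effect minus the STINGgt/gt effect. It was more negative in WT for 59 of 75 members (31.6% of all genes) and more positive for 2 (27.2% of all genes), with a median difference of -0.45, beside -0.03 over all genes. All 59 were among the 62 that fell in WT. The 3 that fell in WT without a called difference were Mrpl10 (-0.16, edgeR adjusted p = 0.0577), Mrpl39 (-0.11, adjusted p = 0.136) and Mrpl44 (-0.15, adjusted p = 0.1). Mrpl10 passed in 4 of 21 other settings (adjusted p 0.0241 to 0.0376), and Mrpl44 in 1 of them (0.0442). Among the 59, Mrpl32 (-0.24, edgeR adjusted p = 0.029) lost its call in 10 of 21 (adjusted p 0.0543 to 0.128). The most negative differences were those of Mrps18b (-1.09, SE 0.08), Mrps28 (-1.05, SE 0.08), Mrpl42 (-0.96, SE 0.08) and Mrps27 (-0.96, SE 0.06). Mrpl14 (0.65, SE 0.12) and Mrps6 (0.33, SE 0.08) were the 2 positive ones. Mrpl45 had a difference of 0.14 that did not pass (SE 0.08, edgeR adjusted p = 0.126). It passed in 2 of 21 other settings (adjusted p 0.0336 to 0.0401).

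The genotypes were also compared without CMA, where WT and STINGgt/gt T cells differed by less than 1.5-fold in all 75 genes. With DMSO, 7 members were higher in WT (9.33%), where 22.9% of all genes were, and 10 were lower (13.3%), where 19.8% of all genes were. The median log2 difference was 0.02. All 3 WT libraries lay above all 3 STINGgt/gt libraries in 12 members (25.3% of all genes) and below them in 11 (22.6% of all genes). The 7 higher ones were all large subunit genes: Mrpl33, Mrpl32, Mrpl43, Mrpl4, Mrpl48, Mrpl9 and Mrpl39. The 10 lower ones were Mrpl13, Mrps17, Mrpl23, Mrps5, Mrps18b, Mrps2, Mrpl42, Mrpl47, Mrps31 and Mrpl3. The difference was the largest for Mrpl33, at 54.6, 63.3 and 56 CPM in WT DMSO and at 49.3, 46.7 and 45.6 in STINGgt/gt DMSO (0.29, SE 0.06, edgeR adjusted p = 0.00126). Mrpl33 shares exons with the same-strand gene Gm43809 and overlaps Rbks on the other strand, and the part of these neighbours was not tested. In the other direction Mrpl13 was at 48.4, 51.1 and 47.1 CPM against 61.7, 56.4 and 55.5 (-0.25, SE 0.05, edgeR adjusted p = 0.00102). Neither pair of groups overlapped. Mrps17 was at 35.3 to 38.3 CPM against 42.1 to 44.9 (-0.24, SE 0.05), Mrps5 at 44.4 to 48.8 against 51.9 to 56.6 (-0.21, SE 0.05), and Mrpl23 at 5.85 to 7.11 against 7.25 to 8.05 (-0.23, SE 0.09). The call of Mrpl23 was lost in 7 of 20 other settings, DESeq2 among them (adjusted p 0.0512 to 0.153). Mrps6 was not called (-0.14, edgeR adjusted p = 0.0642). It passed as lower in WT in 9 of 20 other settings, DESeq2 among them (adjusted p 0.0219 to 0.0475). Of other named members not called, Mrps10 passed in 2 of 20, and Mrpl44 and Mrps27 in 1 each.

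Of the higher group, Mrpl43 was at 38.6 to 40.3 CPM in WT DMSO and 34.1 to 34.9 in STINGgt/gt DMSO (0.20, SE 0.05). Mrpl32, whose protein is matured by the inner membrane protease that also guards protein quality, was at 40.2 to 45.2 against 35.2 to 39.6 CPM (0.20, SE 0.06). Mrpl4 was at 49.7 to 63.7 against 47.7 to 49.4 CPM (0.19, SE 0.07, edgeR adjusted p = 0.0479) and lost its call in 17 of 20 other settings (adjusted p 0.0569 to 0.3). Mrpl32 (adjusted p 0.0543 to 0.0805), Mrpl48 (0.0593 to 0.0668), Mrpl42 (0.0621 to 0.145) and Mrps18b (0.0546 to 0.0932) each lost theirs in 3 of 20. These counts moved with single libraries. Without WT DMSO replicate 2, STINGgt/gt DMSO replicate 2 or STINGgt/gt DMSO replicate 3 there were 4 higher members, and without WT DMSO replicate 1 or STINGgt/gt DMSO replicate 1 there were 4 lower ones. In the same comparison 7 of 7 B cell markers, 6 of 6 myeloid markers and 5 of 6 CD8 and natural killer markers were higher in WT, and their part in the member differences was not tested.

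With CMA in both genotypes, 58 members were lower in WT (77.3%; 36.5% of all genes) and 4 were higher (5.33%; 37% of all genes), with a median log2 difference of -0.44. All 3 WT libraries lay above all 3 STINGgt/gt libraries in 6 members (39.7% of all genes) and below them in 58 (39.2% of all genes). This comparison shares the WT CMA libraries with that of CMA against DMSO in WT. The largest differences were in Mrps18b (-1.26, SE 0.06), Mrpl42 (-1.13, SE 0.06), Mrps28 (-1.05, SE 0.06) and Mrps27 (-1.04, SE 0.05). The 4 higher members were Mrpl14 (0.69, SE 0.08), Mrpl45 (0.24, SE 0.06), Mrps6 (0.20, SE 0.06) and Mrps18c (0.15, SE 0.06, edgeR adjusted p = 0.0243), of which the last was at 27.6 to 30.3 against 24.8 to 26.8 CPM and lost its call in 6 of 20 other settings (adjusted p 0.0555 to 0.122). All 7 B cell markers and 5 of 6 myeloid markers were higher in WT here as well, and of 6 CD8 and natural killer markers 4 were higher and 2 were lower. The 2 lower ones were the natural killer markers Ncr1 (-1.27) and Klrb1c (-1.70). CD4 T cell markers were lower in 5 of 8. The part of these markers in the member differences was not tested.

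The subunits of the same ribosome that carry other names, 7 in all, fell in WT cells in 7 of 7 cases. Their median log2 fold change was -0.41, and 37.4% of all genes tested fell. Mrp63 fell from 23.2 to 26.7 CPM to 14.5 to 16.7 CPM (-0.71, SE 0.08), Dap3, a GTP-binding small subunit protein, from 110 to 118 CPM to 83.7 to 87.1 CPM (-0.41, SE 0.04), and Aurkaip1 from 54 to 59.9 CPM to 48.3 to 54.6 CPM (-0.16, SE 0.05, edgeR adjusted p = 0.0139). The Aurkaip1 ranges overlapped. Ict1, a peptidyl-tRNA hydrolase built into the large subunit, had a log2 fold change of -0.29. In STINGgt/gt cells the median log2 fold change of these 7 was -0.02.

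Genes that build and serve the ribosome were counted in the same way, beside the 37.4% of all genes tested that fell with CMA in WT cells and the 33% that rose. Of 22 assembly factors, 12 fell (54.5%) and 3 rose (13.6%), with a median of -0.22. Rnmtl1, a methyltransferase of the large ribosomal RNA, fell from 7.47 to 8.12 CPM to 3.89 to 4.63 CPM (-0.86, SE 0.09), while Nsun4, a methyltransferase of the small ribosomal RNA, rose from 6.39 to 7.43 CPM to 7.92 to 8.42 CPM (0.23, SE 0.08, edgeR adjusted p = 0.0189). Grsf1, an RNA granule protein and the most abundant of them, fell from 133 to 148 CPM to 111 to 116 CPM (-0.28, SE 0.05). Of 13 translation factors and messenger regulators, 11 fell (84.6%) and 0 rose by edgeR (median -0.36). Lrpprc, which stabilises mitochondrial messengers, fell from 124 to 147 CPM to 61.1 to 65.4 CPM (-1.08, SE 0.06), and Mtif3, an initiation factor, was at 17.8 to 18.8 and 17.6 to 19.4 CPM (0.00, SE 0.06). Of 17 mitochondrial tRNA synthetases, 11 fell (64.7%) and 1 rose (5.88%), with a median of -0.35 and with Nars2 at 18.1 to 20.6 CPM falling to 7.74 to 9.51 CPM (-1.19, SE 0.08).

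Upstream of translation, 3 of 4 genes of mitochondrial transcription fell, too few to set against the share of all genes. Polrmt, the RNA polymerase, went from 29.4 to 34.6 CPM to 24.2 to 28 CPM (-0.35, SE 0.07), and Tfam, which packages and transcribes mitochondrial DNA, did not pass (-0.07, SE 0.05). Of 8 nuclear regulators tested, 5 fell (62.5%) and 1 rose (12.5%). Pprc1, a coactivator of NRF1 targets, fell from 120 to 128 CPM to 66.2 to 69.9 CPM (-0.84, SE 0.04), and Myc rose from 297 to 329 CPM to 483 to 524 CPM (0.65, SE 0.06, edgeR adjusted p = 2.17e-08). Of the 13 messengers the mitochondrial ribosome translates, 5 had a count of 0 in every library (mt-Nd4l, mt-Co2, mt-Co3, mt-Atp6 and mt-Atp8) and mt-Nd3 did not pass the filter. Reads aligned to several places were not counted, so a count of 0 need not mean that a messenger was absent. Counts of the other mitochondrial messengers may be incomplete for the same reason, which was not tested. Of the 7 tested, 2 were called higher (28.6%), a share near the 33% of all genes, and none was called lower by edgeR, with 3 of the 7 at an unadjusted p under 0.05 in either direction. mt-Cytb was at 624, 1080 and 621 CPM in WT DMSO and at 1140, 1020 and 1190 in WT CMA (0.53, SE 0.15, edgeR adjusted p = 0.00556). mt-Nd4 was at 229, 427 and 218 CPM against 406, 381 and 403 (0.45, SE 0.17, edgeR adjusted p = 0.0308). In both genes the groups overlapped, since WT DMSO replicate 2 was higher than the other 2 of its group. Without that library the log2 fold changes were 0.84 and 0.82, and 6 of the 7 were called higher. The call of mt-Nd4 was lost without WT DMSO replicate 1 or 3 or WT CMA replicate 1 or 3 (adjusted p 0.0669 to 0.141). mt-Nd1 was at 2130, 3070 and 2130 CPM against 2250, 2100 and 2220 (-0.16, SE 0.11) and mt-Co1 at 2400, 4030 and 2140 against 3790, 3520 and 3670 (0.36, SE 0.16, edgeR adjusted p = 0.0542). Without WT DMSO replicate 2 these were 0.03 and 0.68. Without WT DMSO replicate 1 they were -0.24 and 0.26, neither of them called. Without WT DMSO replicate 3 they were -0.24 and 0.20, and mt-Nd1 was then called lower (edgeR adjusted p = 0.0454). Which of these messengers were called thus changed with the WT DMSO library left out, and none was called in both directions. mt-Cytb was called higher whichever library was left out (edgeR adjusted p 1.36e-09 to 0.0333).

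**Figure D4:**
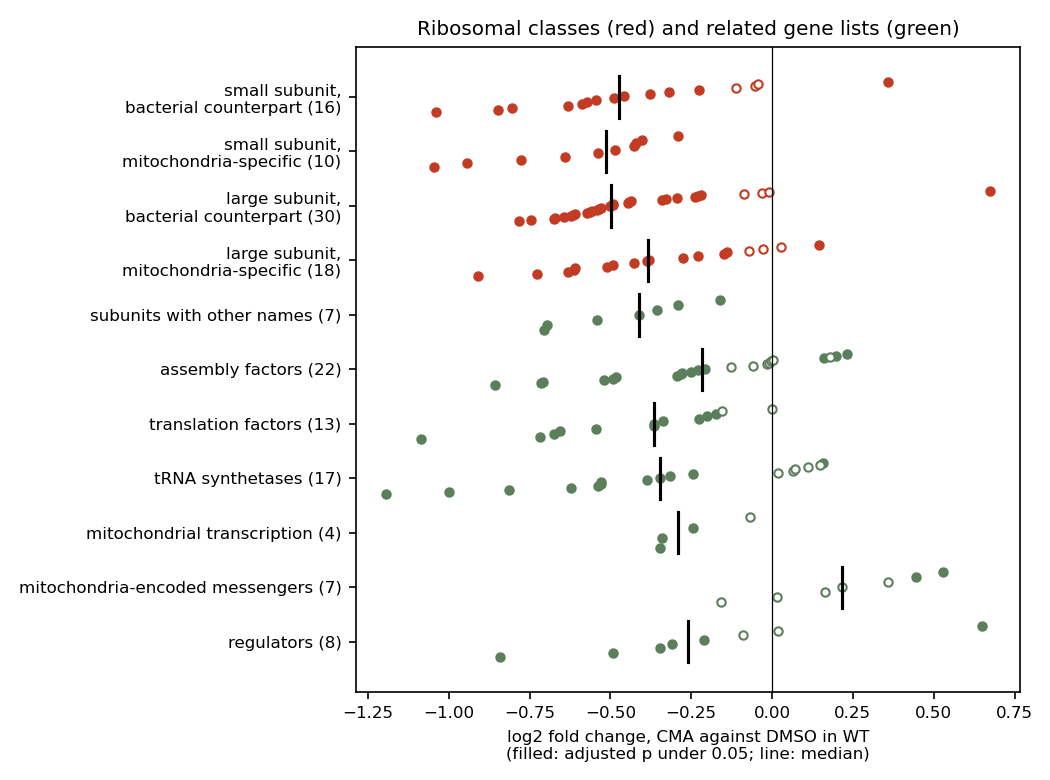
The log2 fold change of CMA against DMSO in WT cells for every tested gene (points) of the 4 ribosomal classes and 7 related lists, with the number of genes in brackets and the median as a black line; open points had an adjusted p of 0.05 or more. The medians of the 4 classes lie between -0.51 and -0.38, and that of the mitochondria-encoded messengers is at 0.22.

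For comparison, the same counts were taken for 2 like sets in the deposited table. Of 84 cytosolic ribosomal protein genes, 77 fell with CMA in WT (91.7%, median -0.32), where 37.4% of all genes tested fell. The median of these 84 in STINGgt/gt was -0.02. Of 79 nuclear genes of the respiratory chain and ATP synthase, 66 fell (83.5%, median -0.35). With DMSO, 26 of these 79 were higher in WT than in STINGgt/gt (32.9%). Beside them stand 7 of the 75 mitochondrial ribosomal protein genes (9.33%) and 22.9% of all genes tested. The differences between the sets were not tested.

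Many members share their start region with another gene. In the GENCODE M21 annotation, 32 of 75 (42.7%) had a protein-coding gene starting within 1000 bases on the opposite strand and running away from it, against 17.2% of 11403 protein-coding genes of the deposited table. Mrps11 and Mrpl46 are such a pair, and both fell (-0.49 and -0.38). Of 30 partners that are no members, 28 could be tested in WT cells, and 11 fell, 8 rose and 9 were not called, with a median of -0.07. These counts are near the shares over all genes tested, of which 37.4% fell and 33% rose. The members beside them had a median of -0.31. Among the 21 members that fell and had a tested partner, the partner fell in 11 pairs, rose in 6 and was not called in 4.

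Single pairs differed. Mrps18b fell by 1.05 on the log2 scale, while Ppp1r10, a phosphatase subunit that starts 45 bases away, rose by 0.35 (edgeR adjusted p = 5.3e-07). Mrps27 and Ptcd2, 81 bases away, fell by 0.94 and 0.77. Mrpl44 and Wdfy1, whose spans overlap, had log2 fold changes of -0.15 and 1.06. Mrpl36 (-0.61) and Ndufs6 (-0.44), a subunit of complex I, fell together, as did Mrpl18 (-0.57) and Tcp1 (-0.43), a subunit of a cytosolic chaperonin. Mrps12 fell (-0.32) and Sars2, the mitochondrial seryl-tRNA synthetase on its other strand, was not called (0.02).

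**Figure D5:**
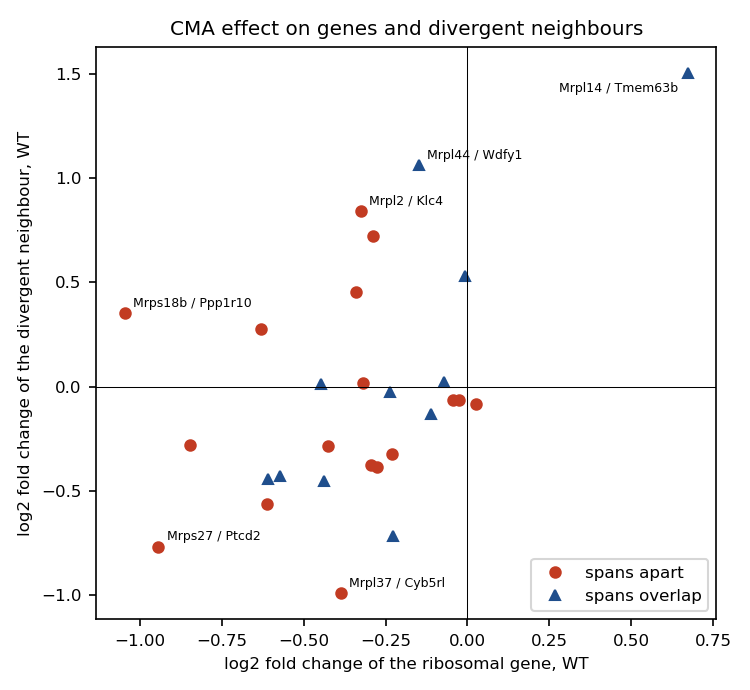
Each of the 28 pairs of a member (horizontal axis) and its divergent neighbour that is no member (vertical axis), as log2 fold change of CMA against DMSO in WT cells; triangles mark pairs whose annotated spans overlap. Neighbours range from -0.99 (Cyb5rl, beside Mrpl37) to 1.51 (Tmem63b, beside Mrpl14), on both sides of 0 among members that fell.

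Members with and without a motif near their start were set side by side for the CMA effect in WT cells. All 8 members with AAGATGGCG fell (median -0.60), as did 46 of the 58 without it (median -0.43). Of 23 with the ETS core, 19 fell (median -0.49), and of 43 without it, 35 fell (median -0.44). Of 12 with the NRF1 core, 8 fell and 2 rose (median -0.22), and of 54 without it, 46 fell and 1 rose (median -0.49). Of 26 with a CCAAT box 25 fell, and of 40 without one 29 fell. Of 5 with the E-box 4 fell, and of 3 with the interferon element pair 1 fell. A match describes the letters in a window and is no evidence of binding, and these differences were not tested.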

How the data were processed

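RNA-seq libraries of CD4+ T cells were made with a stranded mRNA kit. Per the labels, the submitters' processing notes name cutadapt 1.3, STAR 2.4.0f1, HTSeq 0.6.1, RSEM 1.2.16 and GRCm38, with the strand setting of counting not given in the sources used here. The authors deposited raw read counts per gene for each library and 1 table of normalised log2 values, which equals log2(count + 0.5) plus an offset per library. The 5 tally lines of each count file were left out; reads without a feature were 4.86% to 7.16% and reads aligned to several places 27.8% to 30.3% of each file's total.

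Counts were tested in edgeR 4.0.16 (R 4.3.3) with trimmed-mean scaling, its filter by group (13811 genes kept) and 1 model over all 12 libraries, and a call is an adjusted p under 0.05. DESeq2 1.42.0 and limma 3.58.1 served as alternatives, and the fit was tested on simulated data. CPM values use the same scaling. Exon lengths, overlaps and neighbours come from GENCODE M21. Pairs of libraries of 1 group differed by 2.52 to 27.7 times the counting noise, so none was a mere repeat of the same library. This cannot show whether the libraries came from separate mice. Same-numbered libraries did not deviate together in every pair, so the replicate numbers were not used as a block.

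The members and all gene lists were chosen with earlier results of these data known. Named members are those with the largest and smallest effects in each comparison, the highest and lowest levels per length and those with known roles. Other genes were named after their values were seen: members that hold a printed motif, members called or not called where all are listed, chromosome neighbours, single cell type markers, mt-Nd4, Isg15 and Tmem173.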

Additional observations from a re-analysis of the deposited data

Results flagged for a closer look

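By the interaction term of edgeR's model, the CMA effect differed between WT and STINGgt/gt cells in many members. The difference was negative for 59 members (31.6% of all genes) and positive for 2 (27.2% of all genes). Among the named genes, the difference on the log2 scale was -1.09 for Mrps18b, -1.05 for Mrps28, -0.96 for Mrpl42, -0.96 for Mrps27, 0.65 for Mrpl14 and 0.33 for Mrps6. In each of these 6 genes the 3 WT CMA libraries lay outside the range of the 3 WT DMSO libraries. The genes were named for the size of their effects, so this adds no support. Over all genes, 37.6% lay below in this way and 33.5% above. Single libraries were not screened for outlying values, since groups of 3 are too small for that test, and each library was left out in turn instead.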

How the results depend on the processing

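The direction of every named member's called change held in all alternatives run, and counts and medians stayed near those reported except as follows. A minimum of 1.5-fold left 1 higher and 22 lower members for CMA in WT. It left 1 and 21 for the interaction, 1 and 21 for WT against STINGgt/gt with CMA, and 0 and 0 with DMSO. Keeping only the 35 members that overlap no other gene gave 0 higher and 32 lower, 0 and 31, 0 and 31, and 3 and 6 in the same order, by construction from fewer genes, and a median of -0.49 for WT against STINGgt/gt with CMA. With DMSO, an adjusted p under 0.01 gave 4 higher and 3 lower, and fitting only the groups compared gave 4 lower. Medians moved by more than the spread of libraries, whose SD was 0.0376, with limma on the authors' log2 table (-0.44 for CMA in WT, -0.40 for the difference and -0.40 for the genotypes with CMA), with at least 10 counts in every library (-0.44 for CMA in WT) and with library-size scaling (-0.49 for the genotypes with CMA); the cause was not tested. Without the 10 most abundant genes the summed share was 0.341%, 0.253%, 0.342% and 0.343% in WT DMSO, WT CMA, STINGgt/gt DMSO and STINGgt/gt CMA, and over non-overlapping members 0.133%, 0.0936%, 0.134% and 0.133%.

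Leaving out 1 library at a time gave 2 to 3 higher and 61 to 63 lower members for CMA in WT, 0 and 0 in STINGgt/gt, 2 to 3 and 56 to 60 for the difference, 4 to 10 and 4 to 14 for the genotypes with DMSO, and 3 to 4 and 56 to 60 with CMA. The medians ran from -0.49 to -0.45, -0.02 to 0.04, -0.46 to -0.41, -0.01 to 0.04 and -0.47 to -0.42. With the replicate block there were 3 higher and 63 lower members for CMA in WT, 0 and 0 in STINGgt/gt, and 2 and 60 for the difference, where Mrpl10 then passed (adjusted p = 0.0273). Library names share a first digit between a DMSO and a CMA library for all WT replicates and for STINGgt/gt replicates 1 and 3, without the labels saying what the digit marks. With this digit as the replicate block there were 3 higher and 63 lower members in WT, 0 and 0 in STINGgt/gt, and 2 and 57 for the difference, where Mrpl32 did not pass (adjusted p = 0.128). The correlations behind the pairing check were 0.00195, 0.104 and 0.132 for WT libraries. For STINGgt/gt libraries they were 0.0634, 0.0597 and 0.0585. Every STINGgt/gt library correlated best with its own number, and the WT libraries did so except replicate 1, a hint from the data and not from the design. Library counts limit the precision of Mrpl23 and Mrps36, which had a mean of 225.7 and 278.3 counts.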
